A study of Mus musculus with 18 samples.

Results

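The Ms4a4, Ms4a6 and Ms4a7 genes encode tetraspan membrane proteins of the MS4A family, and 8 of them (Ms4a4a, Ms4a4b, Ms4a4c, Ms4a4d, Ms4a6b, Ms4a6c, Ms4a6d and Ms4a7) were followed here among 26165 genes listed for cultured macrophages and 26149 listed for wound macrophages. The 8 were chosen by gene symbol as a family around Ms4a4c, which was called higher in cultured T166A macrophages, so the genotype values of the cultured cells chose them and are described below without a test. The libraries came from mice with the T166A form of PPARg, the lipid-sensing nuclear receptor, in which alanine replaces a threonine that can be phosphorylated, and from wild-type (WT) mice, named as C57BL/6J for the cultures. Bone marrow-derived macrophages (BMDM), marrow cells grown for 7 days with 50 ng/ml of the growth factor M-CSF, gave 3 T166A and 3 WT libraries, with replicates 1 and 2 of each genotype in batch B1 and replicate 3 in batch B2. Cells bound by anti-F4/80 beads from digested dorsal skin at day 6 after injury gave 6 T166A and 6 WT libraries, with no batch label. Age, sex and the number of mutant alleles were not given in the sources used here. All samples are labelled macrophages, although the extraction text attached to them speaks of adipocytes. Nothing says whether replicates were separate cultures or animals, so the spread behind each p-value may be technical.

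MS4A proteins cross the membrane several times and are best known through CD20 (Ms4a1) of B cells and the beta chain of the high-affinity IgE receptor (Ms4a2) of mast cells, where they sit beside immune receptors and alter their signalling or traffic. Several members are macrophage proteins. Human MS4A4A marks alternatively activated macrophages and associates with the beta-glucan receptor Dectin-1, and Ms4a7 is used in mouse brain to tell marrow-derived macrophages from microglia. Mouse Ms4a4c is induced by type I interferon, and mouse Ms4a4b is known from T cells.

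The 8 genes lie within 283.8 kb of chromosome 19 in GRCm38 (mm10). In the order of the chromosome they are Ms4a7 (11321039 to 11336146, minus strand), Ms4a4a (11375488 to 11392915), Ms4a4c (11404717 to 11427246), Ms4a4b (11443558 to 11463549), Ms4a6c (11469353 to 11487182), Ms4a6b (11518559 to 11530403), Ms4a4d (11536794 to 11558466) and Ms4a6d (11586606 to 11604804, minus strand). Each of the transcripts used here has 7 exons. Ms4a4c and Ms4a4b are neighbours with 89.3% identity over 1224 aligned transcript bases, and Ms4a6c and Ms4a6b are neighbours with 89.3% identity over 1473 bases. Of 1145 windows of 100 bases in the Ms4a4b transcript, 28 also occurred in Ms4a4c, and the Ms4a6c and Ms4a6b transcripts shared 0 windows of 100 bases and 100 windows of 50 bases. How reads that fit several genes were counted was not given in the sources used here, so part of the few Ms4a4b counts could be reads of Ms4a4c.

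The start regions of these neighbours also resemble each other, and they are shown because the Ms4a4 pair differed widely in level while the Ms4a6 pair did not. The 250 bases before each start (RefSeq, GRCm38.p6, plus strand, 5′ to 3′) are at chr19:11407411-11407660 for Ms4a4c, chr19:11443308-11443557 for Ms4a4b, chr19:11469118-11469367 for Ms4a6c and chr19:11518309-11518558 for Ms4a6b. The windows of Ms4a4c and Ms4a6c lie before starts inside the annotated genes, so all of the first and the last bases of the second are gene sequence. A stretch just after the Ms4a4b start was not found in the transcript used here for that gene. Capitals mark runs of at least 12 identical bases in the alignment of a pair.
Ms4a4c: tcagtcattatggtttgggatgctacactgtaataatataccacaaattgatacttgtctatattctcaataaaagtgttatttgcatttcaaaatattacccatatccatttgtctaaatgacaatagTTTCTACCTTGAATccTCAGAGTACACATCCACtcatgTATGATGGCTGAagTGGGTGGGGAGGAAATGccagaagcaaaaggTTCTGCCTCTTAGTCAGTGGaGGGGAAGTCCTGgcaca
Ms4a4b: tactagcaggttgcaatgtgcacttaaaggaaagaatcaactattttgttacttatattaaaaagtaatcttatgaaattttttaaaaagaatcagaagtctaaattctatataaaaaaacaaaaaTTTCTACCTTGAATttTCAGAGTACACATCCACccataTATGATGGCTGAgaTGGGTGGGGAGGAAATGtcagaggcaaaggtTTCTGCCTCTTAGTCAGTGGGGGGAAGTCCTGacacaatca
Ms4a6c: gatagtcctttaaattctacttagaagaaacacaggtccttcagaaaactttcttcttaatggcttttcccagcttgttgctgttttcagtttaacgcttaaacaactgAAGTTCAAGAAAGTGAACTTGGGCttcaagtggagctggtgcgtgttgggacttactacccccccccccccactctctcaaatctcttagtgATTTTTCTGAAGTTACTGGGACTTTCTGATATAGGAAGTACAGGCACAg
Ms4a6b: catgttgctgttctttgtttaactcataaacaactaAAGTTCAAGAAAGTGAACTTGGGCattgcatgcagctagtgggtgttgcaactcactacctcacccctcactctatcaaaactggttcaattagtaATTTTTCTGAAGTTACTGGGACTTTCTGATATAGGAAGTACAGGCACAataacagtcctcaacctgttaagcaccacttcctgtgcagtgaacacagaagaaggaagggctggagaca
The Ms4a4c and Ms4a4b windows were 78.9% identical over 232 aligned bases, with 92 bases in 6 such runs, all in the stretch nearer the start. The Ms4a6c and Ms4a6b windows were 85.1% identical over 175 aligned bases, with 72 bases in 2 runs, the longer of 48 bases. The other pairs among the 6 members with a plus-strand window had no run of 12. The promoter table held 8 windows for 7 of the members (a pair for Ms4a7) and was searched on both strands over 300 bases, from 250 before to 50 after the start. The interferon response element, GAAA and a second GAAA with 2 bases of any kind between them, occurred in 0 of the 8 windows and in 3.443% of all 32851 windows, the STAT site letters TTCNNNGAA in 0 of 8 and 8.298%, and the PU.1 letters GAGGAAGT in 0 of 8 and 3.202%. The TTCNNNGAA pattern reads the same on both strands. These counts say only that the letters are not in these windows.

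Levels are given as CPM, the counts of a gene relative to all counts of its library, scaled for library composition by the TMM method, and levels of different genes are compared per kilobase of transcript. Every Ms4a7 level per kb used the 1576 bases of the transcript kept in wounds. The Ms4a7 counts kept in BMDM belong to a transcript of 1334 bases. On that length the BMDM levels per kb of Ms4a7, and its shares given below, would be higher. In T166A BMDM, Ms4a7 led with 610.1 ± 340 CPM per kb, followed by Ms4a6d with 261 ± 90.7, Ms4a6c with 191 ± 35.7, Ms4a6b with 147 ± 22.6, Ms4a4a with 122 ± 33.3, Ms4a4c with 63.6 ± 22.8 and Ms4a4b with 2.33 ± 1.05 CPM per kb (SD, n = 3). The order was the same in WT BMDM, at 559 ± 218, 221 ± 74.6, 139 ± 32.6, 104 ± 28.4, 87.3 ± 19.6, 27.7 ± 9.35 and 2.24 ± 0.869 CPM per kb (SD, n = 3). The ranges of neighbours from Ms4a6d down to Ms4a4a overlapped in each genotype, whereas Ms4a7 and Ms4a4b stood clear of the genes next to them. Ms4a4c lay below Ms4a4a, but in T166A replicate 3 they were level, at 89.8 CPM per kb for Ms4a4c and 89.98 CPM per kb for Ms4a4a. Ms4a4d had 0 counts in the T166A BMDM, which allows up to 0.0233 CPM over that group (3 counts, counting error only), and 9 counts in the WT BMDM.

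The wound fraction had another order. In T166A wounds, Ms4a6d led with 277 ± 26.3 CPM per kb, followed by Ms4a4a with 222 ± 16.1, Ms4a7 with 159.9 ± 8.10, Ms4a6c with 63.3 ± 4.61, Ms4a6b with 31.4 ± 2.57, Ms4a4c with 24.2 ± 2.24, Ms4a4d with 1.91 ± 0.556 and Ms4a4b with 0.675 ± 0.216 CPM per kb (SD, n = 6). WT wounds had the same order, at 296 ± 26, 207 ± 10.9, 196 ± 19.3, 74.4 ± 5.84, 36.5 ± 4.78, 25.3 ± 3.06, 1.68 ± 0.343 and 0.618 ± 0.274 CPM per kb (SD, n = 6). Ms4a6d and Ms4a4a overlapped in T166A wounds and Ms4a4a and Ms4a7 in WT wounds, and the other neighbours did not. The 3 Ms4a7 transcripts, of 882, 1334 and 1576 bases, held nearly the same reads. On a length shorter than 1576 bases Ms4a7 would be higher, so its place in the wound order and all shares depend on that choice. Ms4a7 made up 41.8% ± 8.19 of the summed CPM per kb of the 8 genes in T166A BMDM and 48.5% ± 2.65 in WT BMDM (SD, n = 3 each), against 20.5% ± 0.818 in T166A wounds and 23.4% ± 0.634 in WT wounds (SD, n = 6 each). Ms4a4a made up 9.71% ± 4.64 in T166A BMDM and 7.83% ± 0.988 in WT BMDM, against 28.5% ± 0.612 in T166A wounds and 24.8% ± 1.43 in WT wounds. The cell sources are separate tables and experiments, so their difference was not tested. Pparg, whose protein is altered and not removed, was at 57.7 ± 3.12 CPM in T166A BMDM and 58.4 ± 3.55 CPM in WT BMDM, and at 24.5 ± 3.34 CPM in T166A wounds and 28.0 ± 1.27 CPM in WT wounds, which checks no label.

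**Figure D1:**
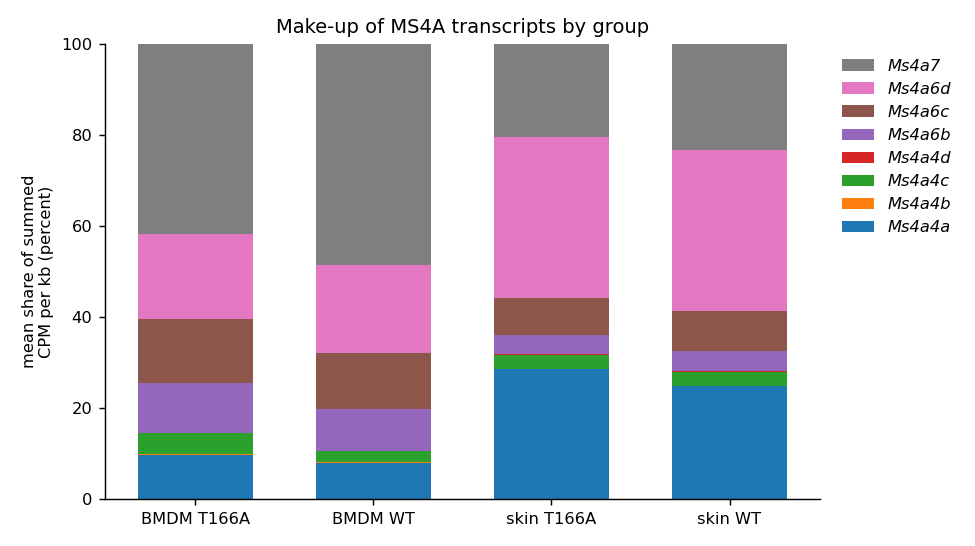
Mean share (percent, y axis) of each gene in the summed CPM per kb of the 8 MS4A genes, as stacked bars for T166A and WT BMDM (n = 3 each) and T166A and WT wound fractions (n = 6 each). Ms4a7 is the largest part in BMDM (41.8% in T166A and 48.5% in WT) and Ms4a6d in wounds (35.4% in T166A and 35.3% in WT). These shares use 1576 bases for Ms4a7, and the length of a shorter Ms4a7 transcript would raise its share in every bar.

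In BMDM the genotype difference was widest for Ms4a4c. Its level was 91.2 and 82.7 CPM in T166A libraries of batch B1 and 155 CPM in the T166A library of B2, against 41.2 and 36.0 CPM in WT libraries of B1 and 66.1 CPM in the WT library of B2. Every T166A library lay above every WT library, and in both genotypes the B2 library was the highest. The log2 fold change, T166A over WT with batch in the model, was 1.19 (SE 0.13), or 2.28-fold, and the ratio within batches was 2.26 in B1 and 2.34 in B2. The family was chosen around this gene, so its call restates the choice and nothing is read from it. At the edgeR adjusted threshold of 0.05, 0.0609% of 13139 genes were called higher and 0.00761% lower (0.0685% in either direction), with Ms4a4c the member inside and Ms4a6b, at a log2 fold change of 0.53, the next outside. Which members lie inside depends on the fit. Ms4a6b and Ms4a6c were inside by DESeq2 and Ms4a6b by limma-voom with quality weights. Ms4a4c was outside with summed transcripts, without a batch term, and without T166A replicate 1 or 2 or WT replicate 1 or 3.

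The near relative Ms4a4b was scarce. It was at 1.44, 3.31 and 3.96 CPM in T166A BMDM replicates 1, 2 and 3, against 2.44, 1.93 and 4.00 CPM in the WT replicates, and the groups overlapped. The Ms4a4c to Ms4a4b ratio of CPM ran from 25.0 to 63.3 in T166A BMDM and from 16.5 to 18.7 in WT BMDM.

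Ms4a4a, which in human associates with Dectin-1, differed between the batches. It was at 99.0 and 131 CPM in T166A libraries of B1 and 75.2 CPM in the T166A library of B2, against 57.9 and 70.6 CPM in WT libraries of B1 and 90.4 CPM in the WT library of B2. The T166A to WT ratio was 1.79 in B1 and 0.832 in B2. Its log2 fold change of 0.47 (SE 0.23) became 0.84 in B1 alone and when either replicate 3 was left out, which leaves genotype to the same B1 libraries.

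Ms4a6b and Ms4a6c ran together. Ms4a6b, known in mouse from T cells, was at 227, 226 and 292 CPM in T166A BMDM replicates 1 to 3, against 152, 143 and 230.3 CPM in WT. Ms4a6c, its closest relative among the 8, was at 307, 320.1 and 427 CPM in T166A BMDM, against 223, 219 and 325 CPM in WT. In each gene the T166A library exceeded the WT library of the same batch, although the WT library of B2 lay above both T166A libraries of B1. The log2 fold changes were 0.53 (SE 0.12) for Ms4a6b and 0.47 (SE 0.11) for Ms4a6c, and the Ms4a6c to Ms4a6b ratio stayed between 1.35 and 1.46 in T166A BMDM and between 1.41 and 1.53 in WT BMDM.

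Ms4a6d and Ms4a7 differed more by batch than by genotype. Ms4a6d, a macrophage member, was at 294, 278 and 501 CPM in T166A BMDM, against 235, 252 and 420.5 CPM in WT, with a log2 fold change of 0.24 (SE 0.11). Ms4a7 was at 633, 673 and 1579 CPM in T166A BMDM, against 641, 728 and 1274 CPM in WT, with a log2 fold change of 0.06 (SE 0.13). The B2 library exceeded the mean of the B1 libraries 2.42-fold in T166A and 1.86-fold in WT for Ms4a7, and 1.75-fold in T166A and 1.72-fold in WT for Ms4a6d.

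**Figure D2:**
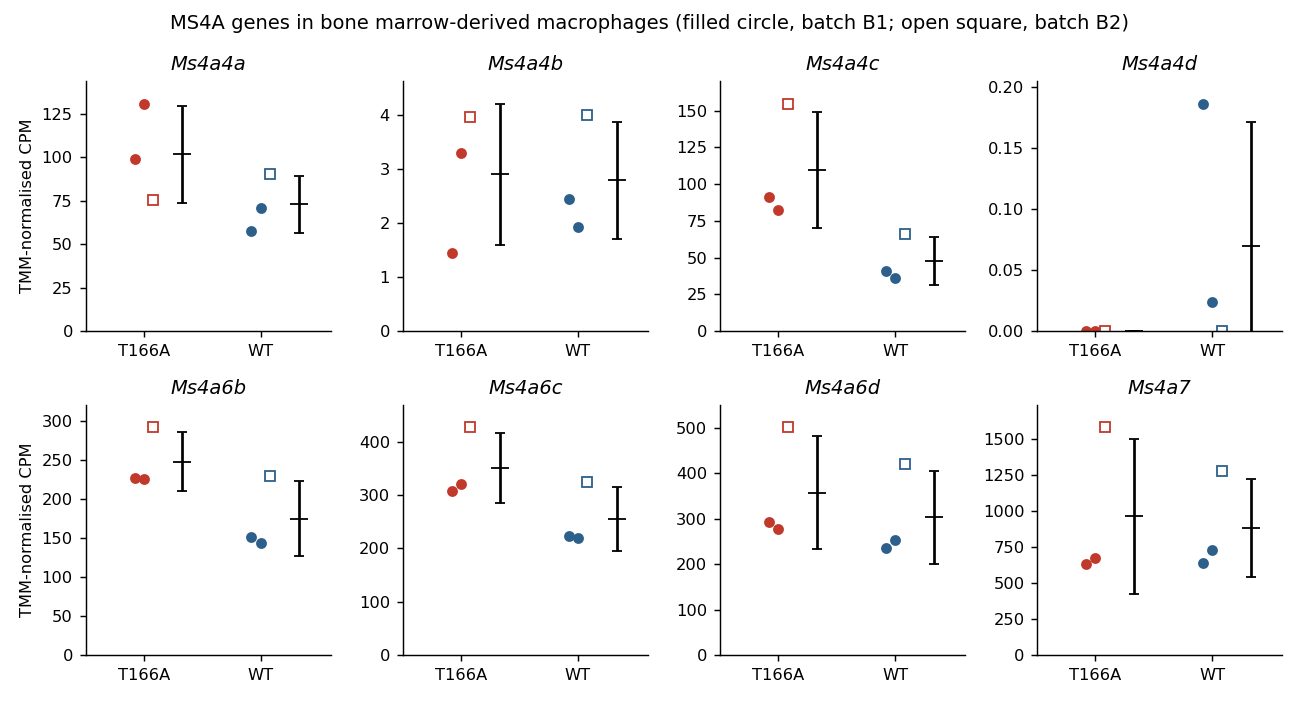
TMM-normalised CPM (y axis, from 0) of the 8 MS4A genes in each T166A and WT BMDM library (n = 3 each), with filled circles for batch B1, open squares for batch B2 and black bars for the mean and SD. Ms4a4c is the panel where every T166A library (82.7 to 155 CPM) lies above every WT library (36.0 to 66.1 CPM).

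Over the 7 members that passed the filter on low counts in BMDM, 7 log2 fold changes were above 0, as were 47.1% of all genes tested, and the median was 0.47 against -0.02 over all genes tested. Ms4a4b and Ms4a7 went below 0, to -0.32 and -0.07, when single libraries were left out. One member of 7 had groups that did not overlap with T166A above, and none had them with T166A below, where 6.67% and 6.97% of all genes tested had them. The rule rests on this contrast, so nothing is read from these counts. Among 30 type I interferon response genes, 30 had log2 fold changes above 0 with a median of 0.69, and their summed level was 5101 to 5637 CPM in T166A BMDM and 3264 to 3986 CPM in WT BMDM. Fibroblast markers stood apart in T166A replicate 3, with a summed 412 CPM against 8.43 and 11.6 CPM in the other T166A libraries and 5.00 to 45.5 CPM in WT libraries. Without that library the Ms4a4c log2 fold change was within 1.14 to 1.26, the range over leaving out each BMDM library. The summed monocyte markers separated the genotypes, at 317 to 371 CPM in T166A BMDM and 252 to 284 CPM in WT BMDM. Ccr2 was the largest part (mean 164 CPM in T166A and 129 CPM in WT). Of the 10 monocyte markers, 6 had log2 fold changes above 0, with a median of 0.06, and Chil3 was lower in every T166A library (-1.68). T cell markers summed to 95.5, 94.5 and 42.5 CPM in T166A replicates 1, 2 and 3 and to 41.1 to 48.6 CPM in WT BMDM. Cd28 (mean 52.9 CPM in T166A and 33.2 CPM in WT) and Cd4 (23.02 and 10.99 CPM) were the largest parts of that sum. The T cell markers Cd3d, Cd3e and Cd3g had means of 0.2504, 0.2586 and 0.1736 CPM in T166A BMDM. In WT BMDM their means were 0.1796, 0.3193 and 0.1533 CPM, so Cd3e was lower in T166A and Cd3d and Cd3g were higher. The part of interferon response, fibroblast, monocyte or T cell markers in the MS4A values was not tested. The 12 macrophage markers summed to 39424 to 50480 CPM in T166A BMDM, with a median of 39798 CPM, and to 42519 to 57159 CPM in WT BMDM, with a median of 43742 CPM, and 8 of their 12 log2 fold changes were above 0. The lysozyme gene Lyz2, the most abundant, was at 24672 ± 7066 CPM in T166A BMDM and 30124 ± 6675 CPM in WT BMDM, and Spi1, which encodes PU.1, was lower in every T166A library than in every WT library (log2 fold change -0.23). The macrophage genes Adgre1, which encodes F4/80, and Csf1r, the M-CSF receptor, were at 1707 ± 246 and 3508 ± 992 CPM in T166A BMDM and at 1656 ± 191 and 3045 ± 445 CPM in WT BMDM.

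In the wound fraction, whose values the rule for the members does not use although they were known when the family was chosen, Ms4a7, Ms4a6c and Ms4a6b fell in T166A (quasi-likelihood test of edgeR), and the other members did not pass. All 8 were tested, and 3 of 8 were called lower and 0 higher, where 13.2% of 15473 genes tested were called lower and 12.7% higher (25.9% in either direction). The members' median log2 fold change was -0.08, against 0.01 over all genes tested, and 3 of 8 were above 0, as were 51.6% of all genes tested. No member had groups without overlap, where 5.43% of all genes tested had every T166A library above and 6.63% had every T166A library below every WT library. At an unadjusted p of 0.05 the same number, 3 of 8, passed, beside 36.9% of all genes tested.

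Ms4a7 had the widest fall. Its level in T166A wounds had a lowest, median and highest value of 239.8, 248.5 and 275 CPM, against 273, 309 and 353 CPM in WT wounds. The groups overlapped by 1 library each, T166A replicate 1 and WT replicate 2. The mean was 252 ± 12.8 CPM in T166A and 309 ± 30.4 CPM in WT (SD, n = 6 each), a log2 fold change of -0.29 ± 0.06 (SE) and an edgeR adjusted p of 0.000638. The call held when each wound library was left out in turn, with log2 fold changes from -0.33 to -0.25.

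Ms4a6c and Ms4a6b fell by less. Ms4a6c was at 104, 117 and 126 CPM (lowest, median, highest) in T166A wounds and at 121, 138 and 151 CPM in WT wounds, with a log2 fold change of -0.23 ± 0.06 (SE) and an edgeR adjusted p of 0.00479. The highest T166A libraries reached into the lower WT range. Ms4a6b was at 47.2, 52.6 and 60.4 CPM in T166A wounds and at 51.9, 61.6 and 70.5 CPM in WT wounds, with a log2 fold change of -0.22 ± 0.08 (SE) and an edgeR adjusted p of 0.0409. That call was close to the threshold. It was lost without T166A replicate 2, 3, 4, 5 or 6 (edgeR adjusted p = 0.0816, 0.0567, 0.0776, 0.0963 and 0.0637), without WT replicate 1, 4 or 6 (0.112, 0.101 and 0.111) and with all transcripts summed (0.0692), over alternatives that ran from 0.00879 to 0.372. The Ms4a6c to Ms4a6b ratio had medians of 2.19 in T166A wounds and 2.23 in WT wounds.

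The Ms4a4 genes and Ms4a6d did not pass in wounds. Ms4a4a was at 167, 186 and 205 CPM (lowest, median, highest) in T166A wounds and at 160.5, 172 and 186 CPM in WT wounds, with a log2 fold change of 0.10 ± 0.05 (SE) and an edgeR adjusted p of 0.171. Ms4a4c, the member that differed most in BMDM, was at 34.7, 42.4 and 45.2 CPM in T166A wounds and at 36.8, 42.5 and 51.5 CPM in WT wounds. Its groups overlapped apart from 1 low T166A library and 2 high WT libraries, with a log2 fold change of -0.06 ± 0.08 (SE) and an edgeR adjusted p of 0.61. Ms4a6d was at 318, 389 and 416 CPM in T166A wounds and at 343, 408 and 445 CPM in WT wounds, with a log2 fold change of -0.10 ± 0.07 (SE) and an edgeR adjusted p of 0.305. The scarce Ms4a4b and Ms4a4d were at 0.840 ± 0.268 and 2.88 ± 0.840 CPM in T166A wounds and at 0.768 ± 0.341 and 2.54 ± 0.519 CPM in WT wounds (SD, n = 6 each). Their log2 fold changes were 0.13 (SE 0.34) and 0.18 (SE 0.20), so a difference as small as that of Ms4a7 was within their error. Whether the genotype difference of any member differs between BMDM and wounds was not tested, since the BMDM values chose the members.

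**Figure D3:**
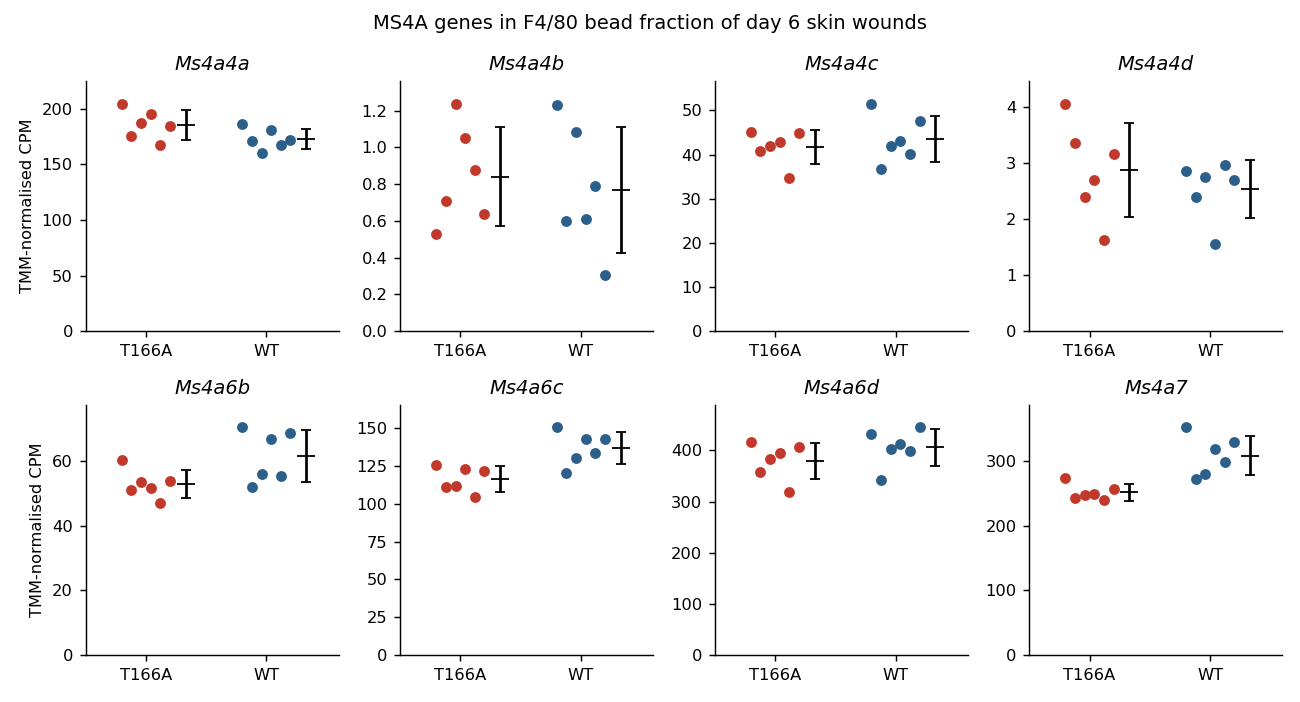
TMM-normalised CPM (y axis, from 0) of the 8 MS4A genes in each T166A and WT wound library (n = 6 each), with black bars for the mean and SD. Ms4a7 (252 ± 12.8 CPM in T166A, 309 ± 30.4 CPM in WT) has the least overlap of the groups, with 1 library of each genotype across.

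**Figure D4:**
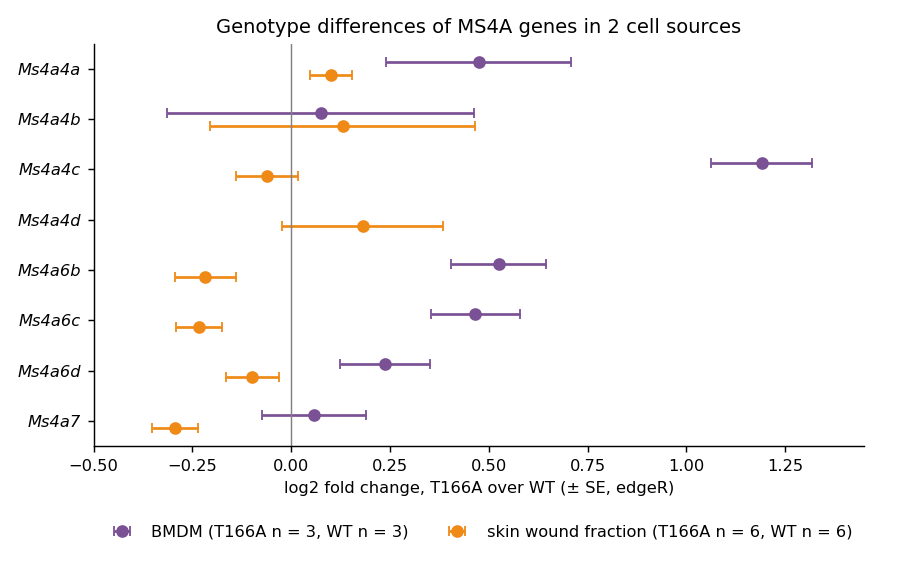
Log2 fold changes of T166A over WT with their SE (x axis) for each MS4A gene, in BMDM (n = 3 per genotype, with batch in the model) and in wounds (n = 6 per genotype); Ms4a4d was under the count filter in BMDM. The Ms4a4c point is at 1.19 in BMDM and -0.06 in wounds, and the Ms4a7 point at 0.06 in BMDM and -0.29 in wounds.

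Macrophage genes fell in the same wound libraries. Of 12 macrophage markers, 10 were called lower and 0 higher in T166A, with a median log2 fold change of -0.33, and their summed level was 10024 to 11375 CPM in T166A wounds and 11880 to 15027 CPM in WT wounds, with no overlap. Adgre1 fell to 687 ± 33.3 CPM in T166A wounds, against 884 ± 86.7 CPM in WT (log2 fold change -0.36, edgeR adjusted p = 7.99e-05), and Csf1r to 1044 ± 45.1 CPM, against 1303 ± 92.7 CPM in WT (-0.32, edgeR adjusted p = 0.000102). Beside that median, Ms4a7, Ms4a6c and Ms4a6b were at -0.29, -0.23 and -0.22. With the macrophage score as a covariate, 0 members passed and 2 had an unadjusted p under 0.05 (edgeR), and Ms4a7, Ms4a6c and Ms4a6b had log2 fold changes of 0.05, 0.05 and 0.23 (edgeR adjusted p = 0.86, 0.867 and 0.372). Since the marker sum separated the genotypes completely, the genotype and the marker level cannot be told apart in that fit. In a bulk fraction, fewer cells of a type and less RNA per cell cannot be told apart either.

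Markers of other cell types were present in the bead-bound fraction. Fibroblast collagen genes were high, and the summed level of 8 fibroblast markers was 6305 to 11497 CPM in T166A wounds and 7421 to 11418 CPM in WT wounds, with 0 called. Neutrophil markers had 4 of 6 called lower, with sums of 156 to 252 CPM in T166A wounds and 257 to 305 CPM in WT wounds. T cell markers summed to 40.0 to 69.9 CPM in T166A wounds and 68.6 to 80.1 CPM in WT wounds, and B cell markers to 29.6 to 39.7 CPM in T166A wounds and 42.2 to 59.2 CPM in WT wounds. Cd4 and Cd28 were the most abundant of the T cell markers. Adipocyte markers had 6 of 7 called higher, although their sums overlapped at 489 to 737 CPM in T166A wounds and 473 to 672 CPM in WT wounds, with the hormone gene Adipoq at 9.91 ± 2.29 CPM in T166A wounds and 0.916 ± 0.375 CPM in WT wounds. With keratinocyte and fibroblast scores as covariates, Ms4a7, Ms4a6c and Ms4a6b were still called lower and Ms4a4a was called higher, at 0.14 (edgeR adjusted p = 0.0137). The part of the other markers in the MS4A values was not tested.

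**Figure D5:**
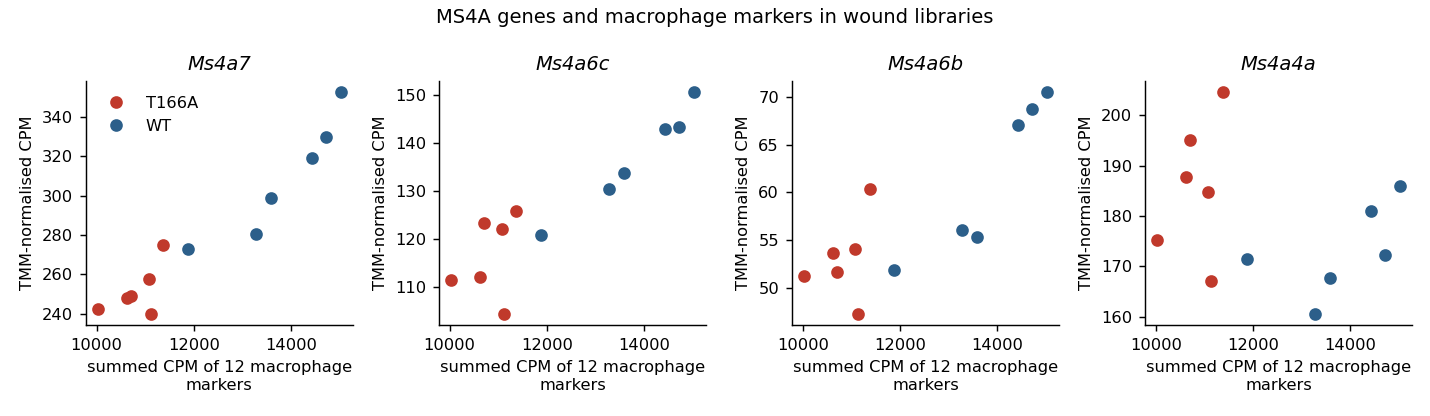
TMM-normalised CPM of Ms4a7, Ms4a6c, Ms4a6b and Ms4a4a (y axes, not from 0) against the summed CPM of 12 macrophage markers (x axis) in each T166A and WT wound library (n = 6 each). The T166A libraries hold 10024 to 11375 CPM of the markers and the WT libraries 11880 to 15027 CPM; Ms4a4a reaches its highest level, 205 CPM, in a T166A library.

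A ratio of members does not depend on library scaling. The Ms4a4a to Ms4a7 ratio of CPM, named after its values were seen, was 0.697, 0.733 and 0.784 (lowest, median, highest) in T166A wounds and 0.523, 0.564 and 0.628 in WT wounds, and the groups did not overlap. The make-up of the family thus held more Ms4a4a beside Ms4a7 in T166A wounds, and the ratio does not say which of them changed. In BMDM it was 0.0476 to 0.194 in T166A and 0.0710 to 0.0970 in WT, with overlap. The Ms4a6d to Ms4a7 ratio overlapped in wounds, at 1.33 to 1.59 in T166A and 1.23 to 1.43 in WT. The Ms4a6c to Ms4a6b and Ms4a4c to Ms4a4b ratios overlapped in wounds too. How often ratios of other gene pairs separate the genotypes was not counted, so nothing more is read from the separation.

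Some members had several deposited rows. Ms4a7 had 3 rows that held nearly the same reads, the lowest being 99.4 to 99.8% of the highest in T166A wounds and 99.5 to 99.7% in WT wounds. Ms4a6c had a row of 1841 bases and a second row with 37.2 to 41.5% as many counts in T166A wounds and 39.6 to 43.3% in WT wounds, and 33.8 to 39.8% in T166A BMDM and 36.0 to 38.7% in WT BMDM. A row counts reads of shared exons as well, so this is no isoform share. RefSeq places the end of Ms4a6c over the same-strand gene Gm8369, which was at 0.197 ± 0.171 CPM in T166A BMDM and 0.443 ± 0.170 CPM in WT BMDM, and the annotations place BE692007 opposite Ms4a6c and the pseudogene Gm5692 opposite Ms4a4c. Without a stated strand setting, reads of antisense partners cannot be told apart.

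The wider MS4A family was measured in part. Of 14 listed relatives, 5 passed the filter in wounds, 0 were called higher and 1 lower. That one was Tmem176a, at 102 ± 7.68 CPM in T166A wounds and 114 ± 3.73 CPM in WT wounds (log2 fold change -0.16, edgeR adjusted p = 0.0293). Tmem176b had a log2 fold change of -0.14 (edgeR adjusted p = 0.0654). Ms4a14 was at 117 ± 10.6 CPM in T166A wounds and 129.8 ± 19.3 CPM in WT wounds (log2 fold change -0.15, edgeR adjusted p = 0.246). In BMDM, where no test is given, Ms4a14 was at 26.0, 26.4 and 12.5 CPM in T166A replicates 1 to 3 and at 12.9, 12.1 and 12.1 CPM in WT. Ms4a8a was at 11.7 ± 2.92 CPM in T166A wounds and 12.9 ± 3.60 CPM in WT wounds. The B cell gene Ms4a1 was at 0.814 ± 0.197 CPM in T166A wounds and 0.478 ± 0.190 CPM in WT wounds (log2 fold change 0.77, edgeR adjusted p = 0.0928), and the T cell gene Cd3e at 0.116 ± 0.0919 CPM in T166A wounds and 0.199 ± 0.156 CPM in WT wounds.

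Most genes listed as partner receptors of MS4A4A and their signalling fell with the macrophage markers in wounds. Fcgr1 is in both lists, and whether the listed genes act with these MS4A members was not tested. Of 10 partner receptors and their signalling genes, 8 were called lower and 0 higher (median log2 fold change -0.29). The kinase gene Syk fell to 757 ± 24.1 CPM in T166A wounds, against 916 ± 76.1 CPM in WT (log2 fold change -0.27, edgeR adjusted p = 0.000554), and the Fc receptor gene Fcgr4 to 41.7 ± 2.79 CPM, against 59.0 ± 7.82 CPM in WT (-0.50, edgeR adjusted p = 2.44e-05). Fcer1g, the common Fc receptor chain, and Trem2, a lipid-sensing receptor, fell by 0.29 and 0.31 on the log2 scale. Clec7a, which encodes Dectin-1, did not pass, at 118 ± 12.5 CPM in T166A wounds and 124 ± 10.4 CPM in WT wounds (log2 fold change -0.06, edgeR adjusted p = 0.5264). Of 30 interferon response genes, 2 were called higher and 0 lower in wounds (median 0.05), those 2 being Xaf1 (log2 fold change 0.26, edgeR adjusted p = 0.00941) and the RNA sensor gene Ddx58 (0.20, edgeR adjusted p = 0.0377). Of 12 markers of resident and alternatively activated macrophages, 7 were called lower and 0 higher (median -0.33), among them the mannose receptor gene Mrc1 (-0.33, edgeR adjusted p = 0.000111).

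Genes with the most similar course were sought over all 18 libraries, by the root mean square difference of log2 CPM centred per gene within each source, among 8345 genes with at least 5 CPM in both. The nearest to Ms4a4c were the growth factor gene Pdgfc (0.16), the interferon-induced Ifit1 (0.17) and Ifi204 (0.18), where a flat line lay 0.43 away. Ms4a6b and Ms4a6c were each other's nearest gene, at 0.07, where flat lines lay 0.25 and 0.23 away. Ly6e and the cathepsin C gene Ctsc followed for Ms4a6b (0.10 and 0.12), and Ctsc and Serp1 for Ms4a6c (0.09 each). Ms4a6d and Ms4a7 shared Slfn2 (0.08 and 0.12) and Rnase4 (0.11 and 0.13), beside B2m for Ms4a6d (0.10) and Rgs10 for Ms4a7 (0.12). Ms4a4a was nearest to Wapl, Rbm6 and Rnf20 (0.10, 0.11 and 0.11, flat line 0.23), and for the scarce Ms4a4b the nearest gene, Eci1, was at 0.40, where a flat line lay 0.52 away. The distances include the batch and genotype differences of BMDM by which the members were chosen, and are a description.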

How the data were processed

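RNA sequencing was deposited as raw counts per RefSeq transcript, in 1 table per cell source, for 6 BMDM and 12 wound libraries. Per the submitters' processing notes, the authors used FastQC 0.12.1, cutadapt 4.4, HISAT2 2.2.1 and featureCounts on mm10. The strand setting and the treatment of reads that fit several places were not given in the sources used here. Of 45895 and 45843 transcripts listed, 117 in each table were not matched to a gene and were left out (0.514% and 0.187% of counts). For each gene the transcript row of highest summed CPM was kept, giving 40072513 to 44152639 counts per BMDM library and 29357354 to 38774475 per wound library. Transcript lengths for the levels per kb were those of the rows kept in wounds. They came from GENCODE M21 and were limited to the RefSeq gene span.

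Tests were run in R 4.3.3 with edgeR 4.0.16 (TMM, minimum count 10, minimum total count 15, robust quasi-likelihood F test, Benjamini-Hochberg over all genes tested, threshold 0.05), BMDM with batch and genotype and wounds with genotype. The procedure was tested on simulated data. Log2 CPM for distances had a prior count of 2. Over all genes tested, deviations of same-numbered T166A and WT libraries correlated at 0.200, 0.115 and 0.185 in BMDM, where the labels give a batch. In wounds they correlated at -0.0454 to 0.0901, and numbers were not used as pairs in the main fit. Alternatives were RLE size factors, other filters, DESeq2 1.42.0, limma 3.58.1 (voom with quality weights), summed transcripts, a replicate block, batch, length trend and marker score terms, and leaving out each library. Named genes were the members, measured relatives, the 2 most abundant and 2 lowest-p genes of lists, and the 3 nearest genes; others were named after their values were seen. The members and lists were chosen with earlier results of these data known.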

Additional observations from a re-analysis of the deposited data

How the results depend on the processing

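In wounds, 149 of 167 alternative values of single members kept their direction and side of the threshold. The count of members called lower ran from 2 to 3 when each library was left out. It was 3 with a replicate block (4549 genes called in all, against 4011 without it), where the SE of Ms4a7 was 0.045, against 0.059 without it. Deviations of same-numbered wound libraries correlated at -0.0454 to 0.0901 over all genes tested. The fibroblast sum, however, was highest in replicate 1 (11497 CPM in T166A, 11418 CPM in WT) and lowest in replicate 3 (6305 CPM in T166A, 7421 CPM in WT). Whether the numbers mark pairs was not tested. With the macrophage score as a covariate the count of members called lower was 0, of 495 genes called, and Ms4a4c, Ms4a6b, Ms4a6c, Ms4a6d and Ms4a7 reversed to 0.32, 0.23, 0.055, 0.22 and 0.050. With keratinocyte and fibroblast scores, Ms4a4a passed at 0.14 (edgeR adjusted p = 0.0137; 0.0137 to 0.356 among all its alternatives) and Ms4a4b reversed to -0.019. Without single libraries Ms4a4b ran from -0.032 to 0.32.

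In BMDM, 109 of 112 alternative values of members moved by less than 1 SD between replicates, and the other 3 were Ms4a4a in B1 alone. That SD includes the difference between batches B1 and B2, so it is a wide bound. Ms4a4c ran from 1.13 to 1.31. Ms4a6b and Ms4a6c were also inside the threshold by DESeq2, and Ms4a6b by limma-voom with quality weights, but neither gene was in the other alternatives. The members were chosen with this contrast, so nothing is read from these calls. The number of genes called, 9, was 105 with no filter, 16 with a stricter filter, 400 by DESeq2, 132 by limma-voom with quality weights, 0 with summed transcripts, 0 without a batch term, 21 in B1 alone, 20 with the length trend removed and 0 to 18 when each library was left out (edgeR; 1557 and 929 genes had an unadjusted p under 0.05 in the first 2 counts of 0, and 859 to 2303 in those without a library). The replicate block gave 10 and changed no call of a member. With 0 genes called, Ms4a4c was not called either. The cause was not tested. Depth limits Ms4a4b and Ms4a4d, at a few CPM or less.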
